A study of Mus musculus with 9 samples.

Results

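The Hox genes are the homeobox transcription factor genes of the Hoxa, Hoxb, Hoxc and Hoxd clusters. They were described here in ribosome-bound RNA from 3 mouse fat depots. A list of 38 Hox symbols was matched by name to the rows of the deposited expression table, and all 38 were found among its 22527 symbols. They comprise 10 members each of Hoxa and Hoxb and 9 members each of Hoxc and Hoxd. A further Hox symbol of the table (1 gene) lies outside the list and was not analysed. The libraries came from brown fat (BAT) and from the inguinal (iWAT) and epididymal (eWAT) white fat pads, with 3 libraries per depot and no treatment. All 9 libraries are labelled as wild type C57BL/6 mice aged 8 weeks. Homogenates were incubated with an anti-GFP antibody to pull down tagged ribosomes, ribosomal RNA was depleted, and single-end libraries were sequenced. The series title names adiponectin TRAP, translating ribosome affinity purification, but the labels do not state which cells carried the GFP tag. The labels do not say whether replicates were separate animals, so p-values measure the spread between these libraries, which may be technical.

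Hox genes lie in 4 clusters in mammals, and members at the same place in different clusters are paralogs that share a number. Low-numbered (anterior) members are switched on early and toward the head during development, and high-numbered (posterior) members later and toward the tail, an order known as collinearity. Adult mesenchymal cells, including those of fat, keep part of the Hox pattern of the body region in which they arose. The main brown fat pad of the mouse lies between the shoulder blades, inguinal fat lies under the skin of the groin, and epididymal fat lies in the abdomen beside the male gonad. Here members numbered 1 to 4 are called anterior, 5 to 8 central and 9 to 13 posterior.

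The sequence before the start of 2 cluster A members, Hoxa5 and Hoxa10, is shown because these were the highest Hoxa members of BAT and of iWAT. The windows are the 250 bases before each annotated start on the minus strand, from RefSeq on GRCm38.p6, written 5′ to 3′ along the gene. Hoxa5 is chr6:52204588-52204837, and the 2 Hoxa10 starts have chr6:52234940-52235189 and chr6:52240855-52241104. Capitals mark TAAT or its complement ATTA, the core that homeodomain proteins bind.
Hoxa5: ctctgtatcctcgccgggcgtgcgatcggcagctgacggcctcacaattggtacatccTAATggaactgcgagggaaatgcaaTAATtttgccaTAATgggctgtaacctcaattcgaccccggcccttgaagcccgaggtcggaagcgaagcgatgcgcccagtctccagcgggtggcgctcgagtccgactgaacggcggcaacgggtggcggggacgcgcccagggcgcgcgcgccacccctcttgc
Hoxa10, start 1: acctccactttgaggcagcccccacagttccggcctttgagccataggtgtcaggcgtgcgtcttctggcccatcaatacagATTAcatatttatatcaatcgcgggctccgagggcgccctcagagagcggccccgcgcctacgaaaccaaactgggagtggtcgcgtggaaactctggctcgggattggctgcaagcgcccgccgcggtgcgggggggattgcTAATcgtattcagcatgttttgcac
Hoxa10, start 2: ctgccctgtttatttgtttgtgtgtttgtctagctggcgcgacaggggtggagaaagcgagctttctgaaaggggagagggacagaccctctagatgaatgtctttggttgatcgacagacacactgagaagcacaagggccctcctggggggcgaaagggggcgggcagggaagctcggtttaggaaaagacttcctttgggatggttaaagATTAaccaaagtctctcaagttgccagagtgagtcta
The Hoxa5 window held 3 TAAT cores, and the Hoxa10 windows held 2 and 1. At least 1 core on either strand was present in 18 of the 24 windows found for 22 members, against 54.9% of all 32851 promoter windows of the same length. The composite TGATNNAT, bound by Hox proteins with Pbx partners, was in 4 of 24 Hox windows and 7.68% of all windows. The AGGTCA element of retinoic acid receptors was in 6 of 24 and 14.02%. The ratio of observed to expected CpG dinucleotides was 1.11 for Hoxa5, 0.913 and 0.458 for Hoxa10, and had a median of 0.721 over Hox windows against 0.374 over all. These matches describe letters in a window and do not show binding.

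Levels are FPKM, fragments scaled to transcript length and library size, as the authors deposited them. Because they are scaled to transcript length, levels of different Hox genes can be set side by side. Depth estimated from the steps of low FPKM values ran from 11.1 to 21.1 M reads in BAT, 2.92 to 4.65 M in iWAT and 4.46 to 16.0 M in eWAT. The shallowest BAT library thus exceeded all 3 of iWAT, and in that comparison depth and depot cannot be told apart. The depth of eWAT 1, 16.0 M reads, was in the BAT range. At 2000 bases of transcript, 1 FPKM corresponded to between 5.83 reads in iWAT 3 and 42.2 reads in BAT 2, so values near 0 are least precise in iWAT. For BAT 3 a single tissue field reads inguinal while its title and source read brown. It was kept as BAT, and its brown fat markers summed to 25659 FPKM against 24000 and 27002 in the other BAT libraries and at most 526 in white fat. The 6 adipocyte markers summed to between 23996 and 59030 FPKM in all 9 libraries. Fabp4 made up most of each sum, at 21769 to 52538 FPKM, so the sum says little of the others. Each of the 6 was lower in iWAT 2 and 3 than in iWAT 1. Adipoq was at 2169, 456 and 771 FPKM in iWAT 1, 2 and 3, and Plin1 at 302, 89.1 and 105. Library iWAT 1 correlated more closely with the eWAT libraries (0.945 to 0.963, Pearson over genes) than with iWAT 2 and 3 (0.899 and 0.934).

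Of the 38 Hox genes, 23 averaged at least 1 FPKM in at least 1 depot: 6 in Hoxa, 7 in Hoxb, 8 of the 9 in Hoxc and 2 in Hoxd. By depot, 14 members reached that mean in BAT, 16 in iWAT and 19 in eWAT. The summed level of all 38 was 112 ± 20.7 FPKM (SD, n = 3) in BAT, against 108 ± 15.9 in iWAT and 141 ± 15.5 in eWAT. Single libraries ran from 88.2 FPKM in BAT 3 to 154 FPKM in eWAT 3. The BAT totals overlapped with those of both white depots. As deposited, all iWAT totals (90.6 to 121.8 FPKM) lay below all eWAT totals (123.8 to 154 FPKM). This order depends on the scaling. The size factors of median-ratio scaling were 0.849 for iWAT 2 and 0.892, 1.165 and 1.193 for eWAT 1, 2 and 3. Divided by these factors, the iWAT 2 total lies above those of all eWAT libraries. The members that made up the totals differed between depots. In bulk RNA, fewer cells of a type and less RNA per cell cannot be told apart.

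**Figure D1:**
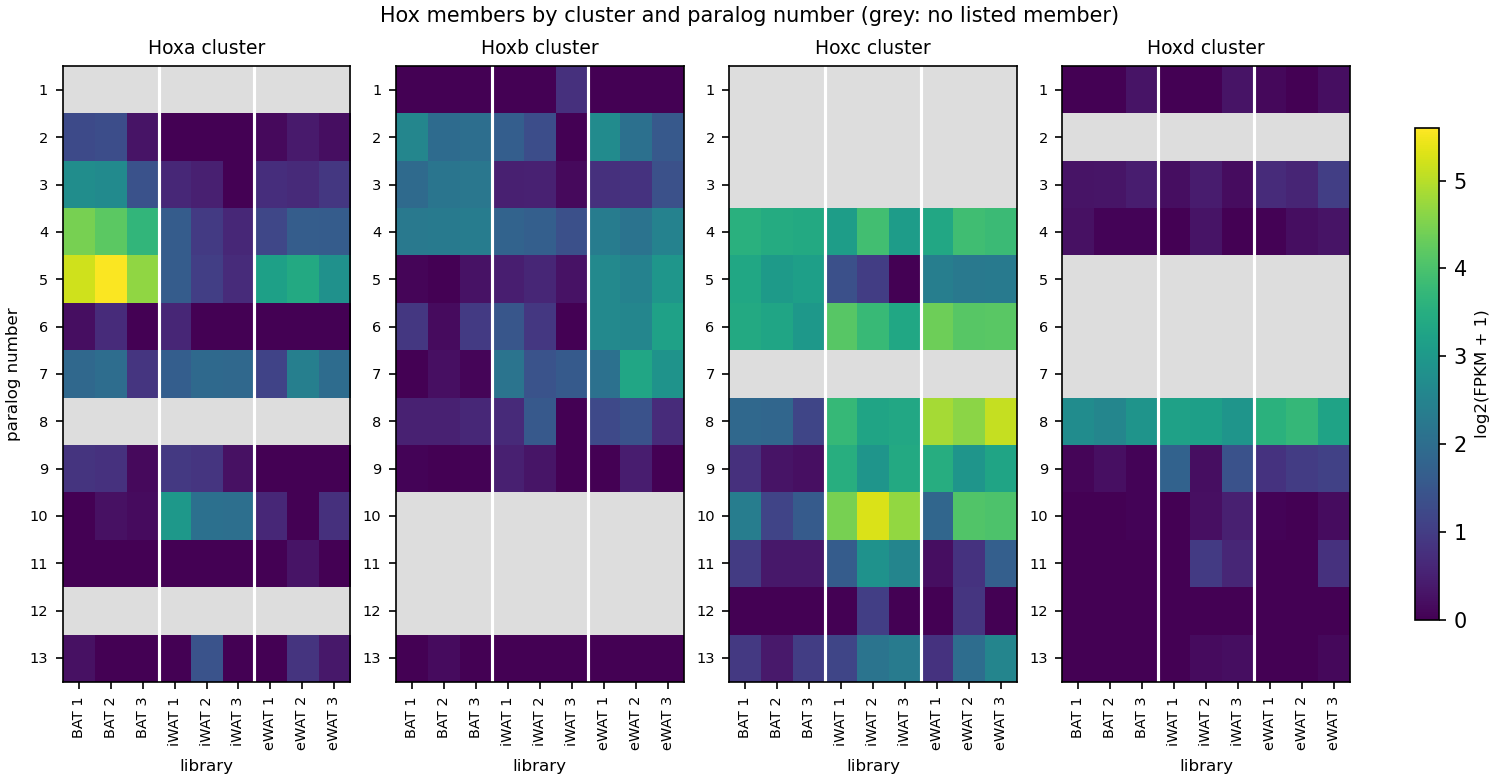
Level of each of the 38 Hox members in each of the 9 libraries, with 1 panel per cluster, libraries on the horizontal axis, paralog number on the vertical axis and colour showing log2(FPKM + 1). In BAT the brightest cells are Hoxa4 and Hoxa5, in iWAT Hoxc10, and in eWAT Hoxc8 and Hoxc6, and most of the Hoxd panel other than Hoxd8 is near 0.

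Cluster Hoxa supplied 53.3% ± 8.49 of the summed Hox FPKM in BAT and 10.2% in each white depot (SD 3.11 in iWAT and 2.01 in eWAT, n = 3 each). Cluster Hoxc supplied 29.7% ± 4.18 in BAT, 72.5% ± 5.70 in iWAT and 60.9% ± 2.76 in eWAT. The Hoxb share was 11.3% ± 2.69 in BAT, then 7.82% ± 2.75 in iWAT and 19.7% ± 0.676 in eWAT, and the eWAT libraries did not overlap with the others. Cluster Hoxd stayed between 4.36% and 10.7% in all 9 libraries. The highest member of a cluster also changed between depots in Hoxa and Hoxc. In Hoxa it was Hoxa5 in BAT, Hoxa10 in iWAT and Hoxa5 in eWAT, in all 3 libraries of each depot. In Hoxc it was Hoxc4 in BAT, Hoxc10 in iWAT and Hoxc8 in eWAT, again in all 3 libraries of each. In Hoxd it was Hoxd8 in all 9. In Hoxb it was Hoxb4 in 2 of 3 BAT libraries and Hoxb7 in 2 of 3 iWAT libraries, while in eWAT Hoxb7 and Hoxb6 averaged 6.16 and 6.12 FPKM and did not differ beyond their spread.

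The 11 anterior members summed to 43.4 ± 8.00 FPKM in BAT, against 15.5 ± 4.60 in iWAT and 24.3 ± 1.85 in eWAT (SD, n = 3). The 11 central members summed to 63.7 ± 12.8 in BAT, against 39.96 ± 9.93 in iWAT and 90.4 ± 3.80 in eWAT. The 16 posterior members summed to 4.99 ± 2.53 in BAT, against 52.3 ± 8.94 in iWAT and 26.2 ± 9.88 in eWAT. As a share of the Hox total, posterior members were between 2.63% and 6.29% in BAT, between 40.8% and 54.5% in iWAT, and at 12.2%, 20.2% and 22.2% in eWAT 1, 2 and 3. The 3 depots did not overlap in that share, with eWAT between the others. Leaving out Hoxc10, the most abundant posterior member, the shares were 1.67% to 3.04% in BAT, 27.1% to 37.4% in iWAT and 10.3% to 13.6% in eWAT. The mean paralog number weighted by FPKM was 4.95 to 5.10 for BAT, 6.49 to 7.06 in eWAT and 7.63 to 8.37 in iWAT. Within clusters, this mean rose from BAT over eWAT to iWAT in Hoxa (4.66, 5.47 and 7.99) and Hoxc (5.82, 7.43 and 8.34). In Hoxb the values of eWAT (5.19) and iWAT (5.15) were alike within their SDs of 0.398 and 0.264, above the 3.46 of BAT.

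**Figure D2:**
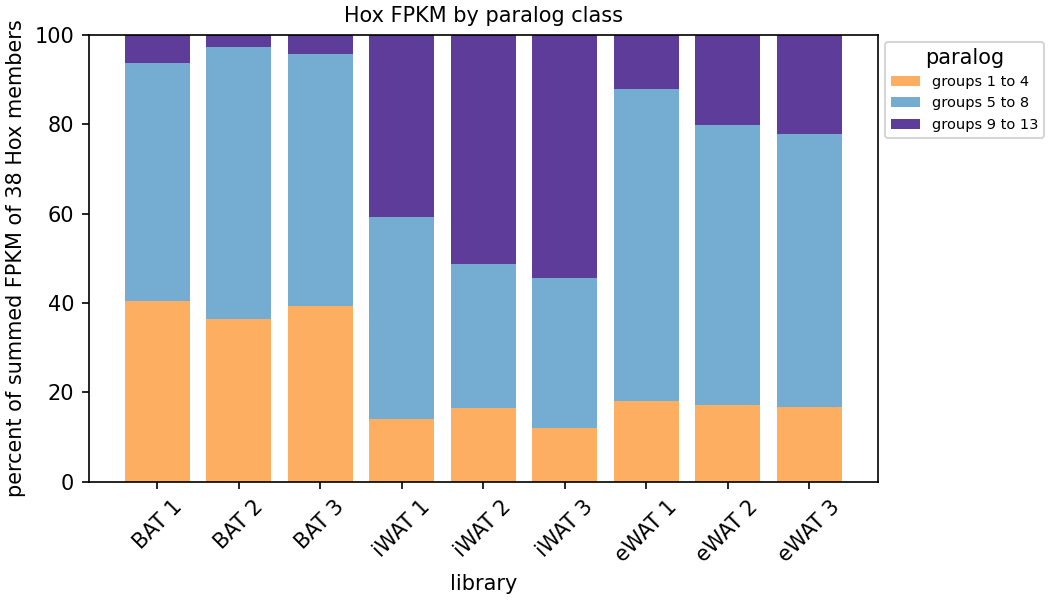
Share of the summed FPKM of 38 Hox members held by the anterior (1 to 4), central (5 to 8) and posterior (9 to 13) classes, with 1 stacked bar per library and percent on a linear axis that starts at 0. Posterior members take at most 6.29% of a BAT bar, at least 40.8% of an iWAT bar and 12.2% to 22.2% of an eWAT bar.

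Differences were tested with limma on log2(FPKM + 1) over the 10374 genes that reached 1 FPKM in 3 or more libraries, and 22 of the 38 Hox genes passed that filter. The other 16 were not tested, among them Hoxa2, which averaged over 1 FPKM in BAT but reached 1 FPKM in 2 libraries only. A member that passed through a single depot, such as Hoxa3 in BAT, Hoxa10 in iWAT or Hoxb5 in eWAT, had to be higher there. The counts below therefore describe the members and support nothing by themselves. Each depot enters 2 of the 3 comparisons, so the comparisons are not independent. A call is an adjusted p under 0.05 after Benjamini-Hochberg correction over all 10374 genes.

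Between BAT and iWAT, 7 Hox members were higher in BAT and 7 were lower, 63.6% of those tested, where 57.5% of all genes were called (34.5% higher and 22.9% lower). The members' share is close to that background. Groups did not overlap for 15 of the 22, against 65.7% of all genes. Members higher in BAT were Hoxa3, Hoxa4, Hoxa5, Hoxb2, Hoxb3, Hoxb4 and Hoxc5, numbered 2 to 5. Members lower in BAT were Hoxa10, Hoxb7, Hoxc8, Hoxc9, Hoxc10, Hoxc11 and Hoxd9, numbered 7 to 11. Of 6 tested anterior members 5 were higher and 0 lower in BAT by limma, and of 6 tested posterior members 0 were higher and 5 lower (at an unadjusted p under 0.05, 5 and 0, and 0 and 6). The 10 tested central members gave 2 higher and 2 lower. The median log2 difference was -0.28 over the 22 members and 0.23 over all genes. Of the 14 calls, 11 held in every alternative in which the member was tested, and those of Hoxb2, Hoxb4 and Hoxd9 did not. Leaving out any BAT library left Hoxa3 untested, and leaving out any iWAT library left Hoxa10 untested, so these calls did not face those alternatives. Without BAT 2 or without BAT 3, 4 members were called higher in place of 7. Hoxb2 and Hoxb4 then lost their calls, and Hoxa3 failed the filter.

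Between BAT and eWAT, 4 members were higher in BAT and 8 were lower, 54.5% of those tested, where 33.7% of all genes were called (20.2% higher and 13.5% lower). Groups did not overlap for 14 of the 22, against 54.6% of all genes. Higher in BAT were Hoxa3, Hoxa4, Hoxa5 and Hoxb3, and lower were Hoxb5, Hoxb6, Hoxb7, Hoxc6, Hoxc8, Hoxc9, Hoxc10 and Hoxd8. Of the tested members, 3 of 6 anterior ones were higher and 0 lower, 1 of 10 central ones was higher and 6 lower, and 2 of 6 posterior ones were lower and 0 higher by limma. At an unadjusted p under 0.05 these counts were 3 and 0, 2 and 6, and 4 lower and 0 higher. The median log2 difference was -0.45 over the members and -0.022 over all genes. Of these 12 calls, 8 held in every alternative in which the member was tested, and those of Hoxa3, Hoxc6, Hoxc10 and Hoxd8 did not. Without eWAT 2, 5 members were called lower in place of 8, with Hoxb5 failing the filter and Hoxc10 and Hoxd8 losing their calls. A further fit had eWAT 1, the library of BAT-like depth, as the sole eWAT library, and assumes this lone library to vary like the BAT libraries. Hoxb5 and Hoxb6 failed its filter and were not tested. The other called members kept their direction in it, with Hoxc10 moving to -0.13.

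Between iWAT and eWAT, 1 member was higher in iWAT (Hoxa10) and 5 were lower (Hoxa5, Hoxb5, Hoxb6, Hoxc5 and Hoxc8), 27.3% of those tested. Of all genes 1.74% were called (0.231% higher and 1.5% lower, 24 and 156 genes, which became 33 and 83 with median-ratio scaling and 42 and 99 with quantile normalization). Groups did not overlap for 11 of the 22, against 22.7% of all genes. All 5 members lower in iWAT were central, while 0 of 6 anterior members were called by limma, where 3 were lower and 0 higher at an unadjusted p under 0.05. Of 6 posterior members 1 was higher and 0 lower by limma, where 3 were higher and 0 lower at an unadjusted p under 0.05. The median log2 difference was -0.43 over the members and -0.18 over all genes. Of these 6 calls, 1 (Hoxb5) held in every alternative in which the member was tested, and the other 5 did not. Without iWAT 1, 9 members were lower in iWAT and 456 genes were higher and 2859 lower over the table. Without any 1 of the eWAT libraries 0 members were lower by limma, Hoxb5 then failing the filter. Without iWAT 2 or iWAT 3, 1 member was lower and 0 higher (Hoxa10 then failing the filter), and without BAT 1, 2 or 3, which share the estimate of spread, 2, 3 and 3 were lower. A fit of iWAT and eWAT alone with a replicate block gave 1 higher and 3 lower. Libraries of these depots numbered 1 or 2 deviate together by number, and those numbered 3 only weakly.

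**Figure D3:**
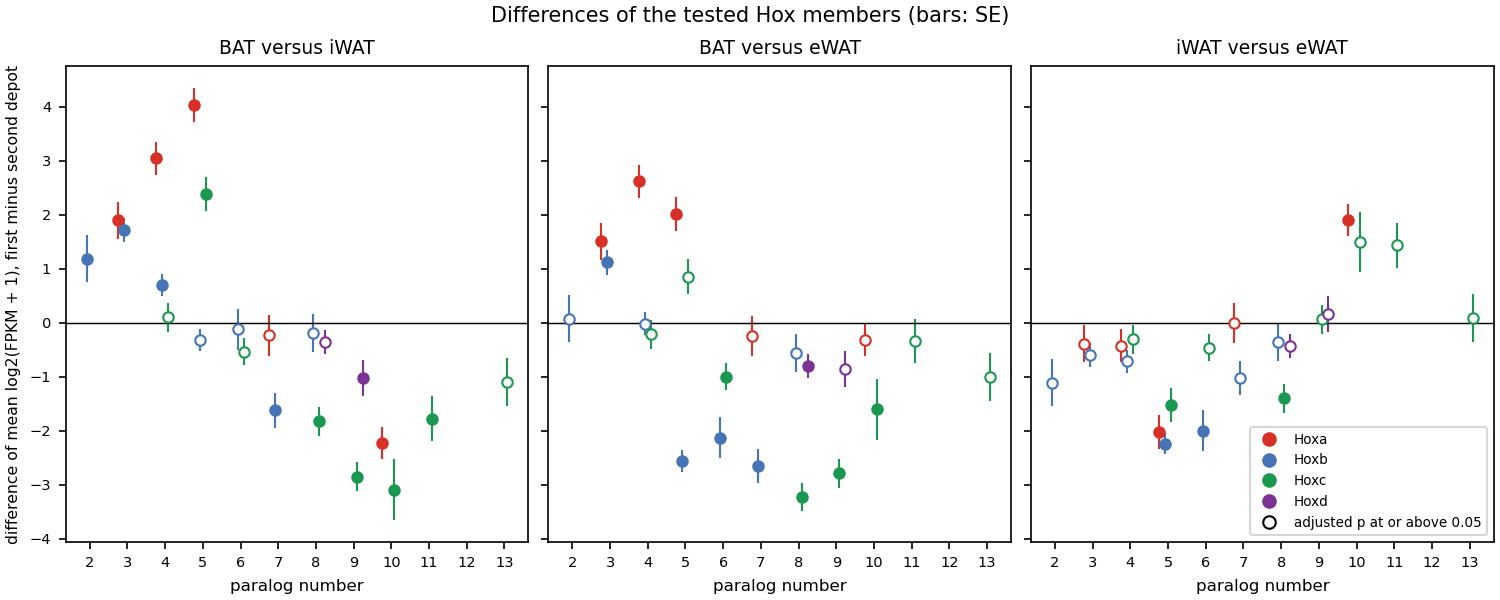
Difference between 2 depots in mean log2(FPKM + 1) for each of the 22 tested Hox members, plotted against paralog number, with 1 panel per comparison, bars for the limma SE, colours for the cluster and filled points for an adjusted p under 0.05. In BAT versus iWAT the filled points from 2 to 5 lie above 0 and those from 7 to 11 below it, and in BAT versus eWAT the filled points at 3 and 4 lie above 0, those from 6 to 10 below it, and those at 5 on both sides.

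Across genes, the difference of BAT minus iWAT had a Spearman correlation of -0.826 with paralog number over the 23 members that averaged at least 1 FPKM, and -0.545 over all 38. For BAT minus eWAT these values were -0.633 and -0.358, and for iWAT minus eWAT 0.545 and 0.517. The points share the same libraries and include overlapping genes, and genes are not independent replicates. Within clusters, BAT minus iWAT gave -0.77 in Hoxa (10 genes), -0.248 in Hoxb (10), -0.4 in Hoxc (9) and -0.35 in Hoxd (9). For BAT minus eWAT the values were -0.782, -0.382, -0.3 and 0.217 in the same order of clusters, so Hoxd had the opposite sign there. For iWAT minus eWAT they were 0.624, 0.164, 0.683 and 0.617. Of the 9 Hoxd members 7 averaged under 1 FPKM in every depot, so the Hoxd ranks rest largely on values near 0. The others, Hoxd8 and Hoxd9, were both lower in BAT than in eWAT (log2 difference -0.80, and -0.86, not called).

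Among anterior Hoxa members, Hoxa4 (mm9 chr6:52139670-52141752), which helps pattern the neck vertebrae, was at 20.8, 17.3 and 11.8 FPKM in BAT 1 to 3. In iWAT it was at 2.09, 0.933 and 0.532, and in eWAT at 1.27, 2.14 and 2.11. All BAT libraries lay above all white fat libraries, and the white depots overlapped. The log2 difference was 3.04 (SE 0.31) against iWAT and 2.62 (SE 0.31) against eWAT, with limma adjusted p of 5.3e-05 and 0.000137. Hoxa3, needed for thymus and parathyroid development, was at 5.67, 5.36 and 1.65 FPKM in BAT, 0.542, 0.410 and 0 in iWAT, and 0.650, 0.582 and 0.883 in eWAT. BAT was again above the rest without overlap, by 1.90 over iWAT and 1.51 over eWAT on the log2 scale, the latter not called against eWAT 1 alone (limma adjusted p = 0.0844, where 13 alternatives gave 0.00349 to 0.0844). Hoxa3 passed the filter only through its 3 BAT libraries, so once tested it had to lie above both white depots. Leaving out any BAT library left it untested, so its alternatives cannot show whether its calls depend on a single one of them. Hoxa3 overlaps Hoxa2, Hoxa4, Hoxa5 and Hoxa6 on the same strand in GENCODE vM1, so some of its reads cannot be told from theirs. Hoxa2, which patterns the second pharyngeal arch, was at 1.38, 1.49 and 0.231 FPKM in BAT. It was listed at 0 in all 3 iWAT libraries and at 0.110, 0.330 and 0.162 in eWAT, so BAT 3 lay within the eWAT range.

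Among the anterior Hoxb members, Hoxb3, a hindbrain and neck patterning gene, was at 2.84, 3.49 and 3.63 FPKM in BAT, 0.407, 0.437 and 0.110 in iWAT, and 0.701, 0.762 and 1.61 in eWAT. The 3 depots did not overlap, with BAT above eWAT by 1.12 (SE 0.23, limma adjusted p = 0.00363) and above iWAT by 1.72 (SE 0.23, 0.000217) on the log2 scale. Hoxb4, known for expanding blood stem cells when supplied to them, was at 3.83, 3.95 and 4.13 FPKM in BAT, 2.42, 2.25 and 1.57 in iWAT, and 4.13, 3.39 and 4.62 in eWAT. BAT and eWAT shared the same range and iWAT lay below both. The log2 difference of BAT and iWAT was 0.70 (SE 0.21), called with a limma adjusted p of 0.016 and not called without BAT 2, BAT 3 or iWAT 3 (0.00951 to 0.0579 over 15 alternatives). Hoxb2, active in the hindbrain, was at 4.92, 2.90 and 3.08 FPKM in BAT, 2.20, 1.5 and 0 in iWAT and 5.48, 3.16 and 1.98 in eWAT. Its BAT and iWAT values did not overlap (log2 difference 1.19, SE 0.43, limma adjusted p = 0.0371), yet 8 of 15 alternatives lost the call, among them those without BAT 1, BAT 2, BAT 3 or iWAT 3 (0.007 to 0.133). Reads of Hoxb2 and Hoxb3 may be mixed with those of Hoxb3os, an antisense gene, since no strand setting is given.

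Hoxc4 (mm9 chr15:102849367-102867274) was the member of this class at a similar level in every depot. It was at 10.8, 9.97 and 9.58 FPKM in BAT, 7.68, 14 and 7.59 in iWAT and 9.19, 13.8 and 13.1 in eWAT. All 3 depots overlapped, and the log2 differences of 0.10, -0.21 and -0.31 (SE 0.27) passed no test. The sign of the BAT and iWAT difference turned under median-ratio scaling (-0.022) and quantile normalization (-0.13).

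Among central members, Hoxa5 (mm9 chr6:52151753-52154586), which patterns the lung and the neck and upper chest skeleton, had the highest Hox level of the series. It was at 35.8, 46.6 and 24.5 FPKM in BAT, 2.10, 1.04 and 0.611 in iWAT, and 8.03, 9.63 and 6.14 in eWAT. The 3 depots did not overlap, in the order BAT, eWAT, iWAT. BAT exceeded iWAT by 4.03 (SE 0.32, limma adjusted p = 1.27e-05) and eWAT by 2.01 (SE 0.32, 0.000821) on the log2 scale, called in all 16 and 17 alternatives. iWAT was below eWAT by -2.02 (SE 0.32, limma adjusted p = 0.014), and this call was lost without iWAT 2, iWAT 3 or any eWAT library, and with only these depots in the fit (0.00166 to 0.0678 over 17 alternatives). Hoxc5 (mm9 chr15:102844246-102847860), a paralog of Hoxa5, had the same order. It was at 9.05, 7.23 and 7.93 FPKM in BAT, 1.58, 1.04 and 0 in iWAT, and 4.25, 3.84 and 3.93 in eWAT, with no overlap between depots. The log2 difference was 2.38 (SE 0.32, limma adjusted p = 0.000244) over iWAT and 0.85 (SE 0.32, 0.0611) over eWAT, the latter not called. Hoxc5 was called over eWAT in 3 of 16 alternatives, namely with only these depots and without iWAT 1 or iWAT 3. Its lower level in iWAT than in eWAT (-1.52, SE 0.32, limma adjusted p = 0.0442) was lost in 14 of 16 alternatives, held only without iWAT 1 and with the replicate block over all libraries, and had 0.058 with the replicate block of iWAT and eWAT alone (range 0.00335 to 0.18).

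The third paralog at this number, Hoxb5 (mm9 chr11:96163909-96167434), was lower in BAT than in eWAT, where Hoxa5 was higher in BAT. Hoxb5, which acts in gut neuron development, was at 0.0576, 0 and 0.212 FPKM in BAT, 0.391, 0.515 and 0.201 in iWAT, and 5.21, 4.55 and 6.72 in eWAT. The eWAT values stood apart from all others, and BAT and iWAT overlapped. Its log2 difference from eWAT was -2.57 (SE 0.20) in BAT and -2.24 (SE 0.20) in iWAT, with limma adjusted p of 1.35e-05 and 0.000449. Both calls held in every alternative that tested the gene, 12 and 13 of them. Hoxb5 passed the filter only through its 3 eWAT libraries, so leaving out any of these left it untested. The counts therefore cannot show whether the calls depend on a single eWAT library. Hoxb6, its neighbour, was at 0.883, 0.125 and 0.925 FPKM in BAT, 1.84, 0.867 and 0 in iWAT, and 5.2, 4.97 and 8.20 in eWAT. Again eWAT alone was high. The log2 difference from eWAT was -2.13 (SE 0.38, limma adjusted p = 0.0017) in BAT, called in all 15 alternatives, and -2.0 (SE 0.38, 0.0297) in iWAT. The latter was lost in 11 of 16 alternatives, among them those without BAT 1, BAT 3, iWAT 2, iWAT 3 or any eWAT library, and had 0.0582 with the replicate block of iWAT and eWAT alone (0.00264 to 0.142). Hoxb5 and Hoxb6 both overlap 0610040B09Rik, and their reads cannot be fully told from it.

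Hoxb7 (mm9 chr11:96145571-96151650) was close to 0 in BAT, at 0, 0.168 and 0.0561 FPKM. In iWAT it was at 3.48, 1.70 and 2.0, and in eWAT at 3.26, 8.88 and 6.34. All white fat libraries lay above all BAT libraries, and the white depots overlapped. The log2 difference was -1.63 (SE 0.32, limma adjusted p = 0.00198) against iWAT and -2.66 (SE 0.32, 0.00014) against eWAT. Its paralog Hoxa7 differed, with 2.73, 3.0 and 0.817 FPKM in BAT, 2.17, 2.79 and 2.70 in iWAT and 1.17, 4.31 and 2.94 in eWAT. Its 3 depots overlapped and no test passed (log2 differences -0.24, -0.25 and -0.010, SE 0.37), and each sign turned under at least 1 alternative, such as leaving out BAT 3 for the comparisons with BAT. Hoxb8, which acts in the microglial lineage, stayed low at 0.420, 0.437 and 0.546 FPKM in BAT, 0.595, 1.97 and 0 in iWAT, and 1.34, 1.64 and 0.614 in eWAT. It passed no test, and it overlaps Hoxb7.

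Hoxc8 (mm9 chr15:102821053-102824698), a thoracic patterning gene, was the highest Hox gene of eWAT. It was at 2.71, 2.58 and 1.24 FPKM in BAT, 12.5, 8.70 and 9.19 in iWAT, and 27.5, 23.8 and 33.7 in eWAT. No 2 depots overlapped, in the order eWAT, iWAT, BAT. BAT was below iWAT by -1.83 on the log2 scale (SE 0.27, limma adjusted p = 0.000402) and below eWAT by -3.23 (SE 0.27, 1.64e-05), called in every alternative. The iWAT and eWAT difference was -1.40 (SE 0.27, limma adjusted p = 0.0309) and lost its call in 11 of 17 alternatives, among them those without BAT 1, BAT 2, iWAT 2, iWAT 3 or any eWAT library (0.00421 to 0.154), keeping its direction in all.

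Hoxc6, also of the thoracic region, was at 9.50, 8.82 and 6.91 FPKM in BAT, 16.8, 12.8 and 9.15 in iWAT, and 19.5, 16.8 and 16.9 in eWAT. BAT lay below eWAT without overlap (log2 difference -1.0, SE 0.25, limma adjusted p = 0.0113), and iWAT overlapped both. That call was lost without BAT 3 and with eWAT 1 alone (0.00251 to 0.0947 over 17 alternatives). Hoxd8 (mm9 chr2:74542672-74545990), the sole Hoxd gene over 5 FPKM, was at 5.64, 4.90 and 6.43 FPKM in BAT, 8.26, 7.91 and 6.53 in iWAT, and 10.9, 12.4 and 8.56 in eWAT. The order of depots was the same as for Hoxc8, with no overlap and smaller steps. Only the step from BAT to eWAT was called (-0.80, SE 0.22, limma adjusted p = 0.0188), and it was lost without BAT 1, BAT 2 or eWAT 2 and with eWAT 1 alone (0.0113 to 0.132 over 17 alternatives). The Hoxc genes from Hoxc5 to Hoxc10 overlap the gene model Gm20398, so some of their reads could have been assigned there.

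**Figure D4:**
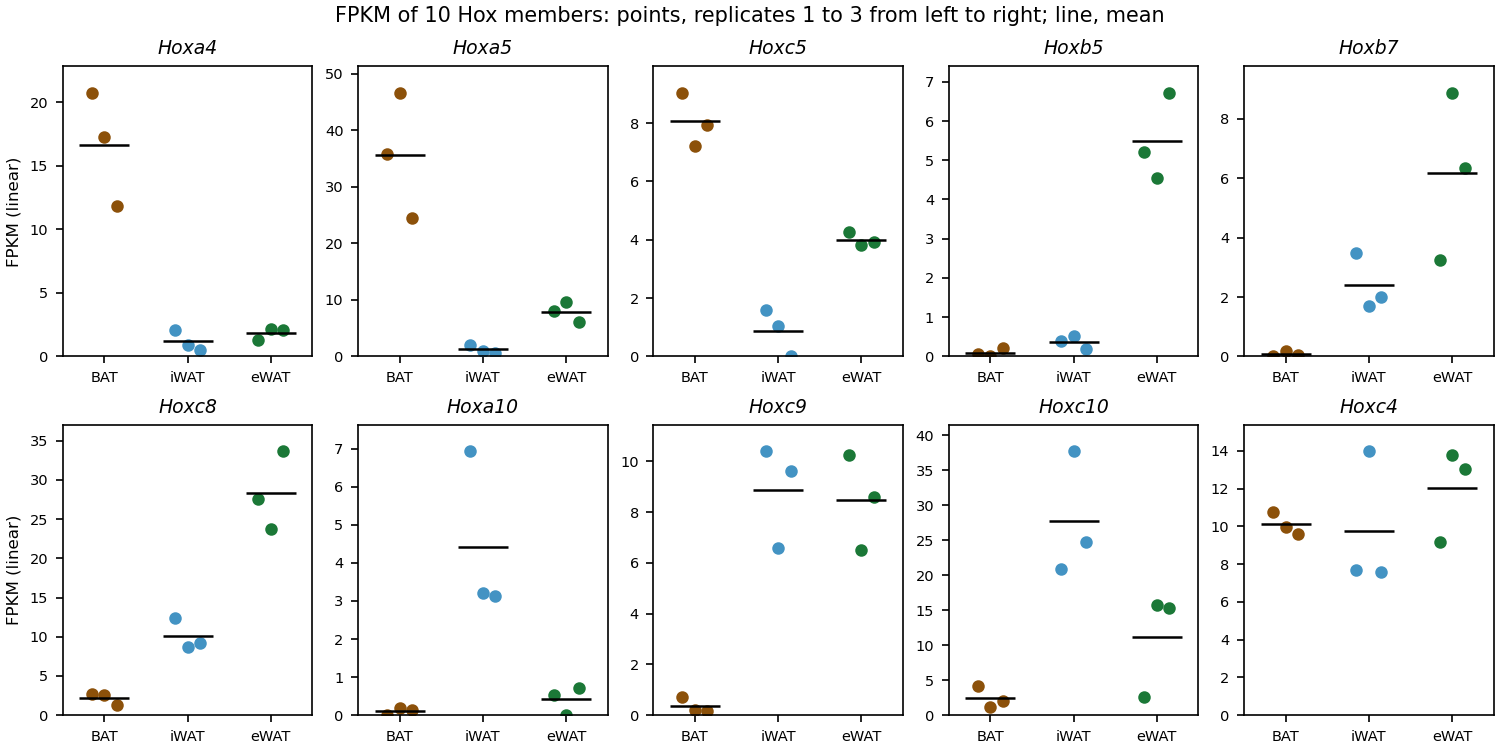
FPKM on a linear axis from 0 in each library for 10 Hox members, with 1 panel per gene, points for replicates 1 to 3 from left to right and a line for the mean. Hoxa4, Hoxa5 and Hoxc5 are highest in BAT, Hoxb5, Hoxb7 and Hoxc8 have their highest mean in eWAT, Hoxa10 and Hoxc10 in iWAT, Hoxc9 is high in both white depots, and Hoxc4 overlaps in all.

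Among posterior members, Hoxc9 (mm9 chr15:102806870-102815530), which helps set thoracic motor neuron identity, separated BAT from white fat. It was at 0.718, 0.222 and 0.165 FPKM in BAT, 10.4, 6.59 and 9.64 in iWAT, and 10.3, 6.51 and 8.60 in eWAT. The white depots covered the same range, far above BAT. The log2 difference was -2.85 (SE 0.26, limma adjusted p = 3e-05) against iWAT and -2.79 (SE 0.26, 3.46e-05) against eWAT, called in every alternative. Hoxd9, its paralog, was at 0.0494, 0.164 and 0.0361 FPKM in BAT, 2.40, 0.162 and 1.68 in iWAT, and 0.779, 1.0 and 1.12 in eWAT. The library iWAT 2 lay within the BAT range. The Hoxd9 call against iWAT (-1.02, SE 0.34, limma adjusted p = 0.0246) was lost in 6 of 15 alternatives, namely without a filter and without BAT 1, BAT 2, BAT 3, iWAT 1 or iWAT 3 (0.000557 to 0.0817). Against eWAT the groups did not overlap and Hoxd9 was not called (-0.86, SE 0.34, limma adjusted p = 0.072). That difference was called in 4 of 15 alternatives, with a pseudocount of 0.1, with only these depots and without iWAT 1 or iWAT 2.

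Hoxa10 (mm9 chr6:52181196-52190853), known for its part in uterus and lumbar vertebra development, was over 1 FPKM in the iWAT libraries alone. It was at 6.93, 3.20 and 3.13 FPKM in iWAT, 0, 0.182 and 0.128 in BAT and 0.531, 0 and 0.719 in eWAT. The iWAT libraries stood apart, and BAT and eWAT overlapped. BAT was below iWAT by -2.23 on the log2 scale (SE 0.30, limma adjusted p = 0.000231), called in all 12 alternatives that tested it. Leaving out any iWAT library left Hoxa10 untested, so this count cannot show whether the call depends on a single one of them. iWAT exceeded eWAT by 1.90 (SE 0.30, limma adjusted p = 0.0139), lost with a pseudocount of 0.1, with only these depots and without any 1 of the eWAT libraries (0.00663 to 0.0909 over 13 alternatives).

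Hoxc10 (mm9 chr15:102797227-102802324), which helps set lumbar motor neuron identity, had the highest Hox level of iWAT. It was at 20.9, 37.7 and 24.7 FPKM in iWAT, 4.20, 1.2 and 2.05 in BAT, and 2.58, 15.8 and 15.3 in eWAT. The iWAT libraries were above all others, and eWAT 1 lay within the BAT range while eWAT 2 and 3 lay between. BAT was below iWAT by -3.10 (SE 0.56, limma adjusted p = 0.00139), called in all 16 alternatives. The iWAT and eWAT difference of 1.49 (SE 0.56, limma adjusted p = 0.146) was not called. Its difference of BAT from eWAT, -1.60 (SE 0.56, limma adjusted p = 0.0495), held in 5 of 17 alternatives and not in 12, among them the replicate block (0.0509) and those without BAT 2, BAT 3, iWAT 1, iWAT 2, iWAT 3, eWAT 2 or eWAT 3. With eWAT 1 as the sole eWAT library it was -0.13 (0.917), and the range over alternatives was 0.00157 to 0.917.

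Hoxc11 was at 0.977, 0.292 and 0.277 FPKM in BAT, 2.08, 6.23 and 4.89 in iWAT, and 0.154, 0.767 and 2.26 in eWAT. BAT and iWAT did not overlap (-1.78, SE 0.41, limma adjusted p = 0.00495, called in all 15 alternatives that tested it), while eWAT overlapped both. Hoxc13, a regulator of hair and nail keratins, was at 0.914, 0.313 and 1.04 FPKM in BAT, 1.27, 3.44 and 4.01 in iWAT and 0.761, 3.03 and 4.87 in eWAT. It was below the iWAT range in all BAT libraries and was not called (-1.10, SE 0.44, limma adjusted p = 0.0533). It was called in 8 of 15 alternatives (0.0172 to 0.164), among them the replicate block (0.0218) and those without iWAT 1, eWAT 1 or eWAT 3. Against eWAT the difference was -1.01 (SE 0.44, limma adjusted p = 0.102), called with the replicate block (0.0479) and without eWAT 1 (0.012), in a range of 0.012 to 0.981.

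The 15 remaining members averaged under 1 FPKM in every depot. They were Hoxa6, Hoxa9, Hoxa11 and Hoxa13 in cluster A and Hoxb1, Hoxb9 and Hoxb13 in cluster B. Cluster C had Hoxc12 alone, and cluster D had Hoxd1, Hoxd3, Hoxd4, Hoxd10, Hoxd11, Hoxd12 and Hoxd13. The highest single value among them was 1.71 FPKM, of Hoxa13 in iWAT 2, and Hoxd12 was listed at 0 in all 9 libraries. These include the genes best known from limb ends and the urogenital tract, Hoxa13 and Hoxd13, and the prostate gene Hoxb13. None of the 15 passed the filter, so differences among depots were not tested for them.

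Library eWAT 1 was lower than eWAT 2 and 3 for a subset of members. Its ratio to the mean of the other two was 0.102 for Hoxc11, 0.166 for Hoxc10, 0.193 for Hoxc13, 0.323 for Hoxa7 and 0.428 for Hoxb7. It was 0.960 for Hoxc8, 1.02 for Hoxa5 and 1.36 for Hoxc9. The posterior Hoxc genes beyond Hoxc9 were thus low in that library, while Hoxc8 and Hoxc9 were not. In the same library the 8 epithelial and skin markers, all present in the table, summed to 65.8 FPKM, against 212 and 192 in eWAT 2 and 3, a ratio of 0.326. Most of this sum came from Krt5, Krt14 and Krt15, at 29.3, 21.2 and 11.2 FPKM in eWAT 1. These keratins were higher in eWAT 2 and 3, as was Cdh1, which was near 0. Krt10 was highest in eWAT 1 (2.38 against 1.79 and 2.24), and Trp63 lay between (1.66 against 0.765 and 1.74). The 10 skeletal muscle markers summed to 227 FPKM in eWAT 1 against 1301 and 1098 in eWAT 2 and 3, a ratio of 0.189. Acta1 made up 224.7 of the 227 FPKM in eWAT 1, and the other 9 muscle markers summed to 2.44 there against 587 and 460 in eWAT 2 and 3. Over depots, the epithelial and skin sum was 25.9 to 49.8 FPKM in BAT, where Epcam was listed at 0 in all libraries, and 162, 430 and 314 in iWAT 1, 2 and 3. Krt10 went the other way, at 2.15 to 2.77 FPKM in BAT and 2.06, 0.451 and 0.558 in iWAT. The muscle sum was 60.6 to 149.8 in BAT and 1817 to 2509 in iWAT, and without Acta1 it was 1.74 to 2.20 in BAT and 864 to 1310 in iWAT. The sum of 7 stromal progenitor markers was 7.41 to 18.6 in BAT, 98.2 to 367 in iWAT and 62.9 to 168 in eWAT, with the highest eWAT value in eWAT 1. Dpt and Dcn made up most of each white fat sum, at 64.7 and 97.0 FPKM in eWAT 1. Among eWAT libraries, Dpt, Dcn and Lum were highest in eWAT 1, Pdgfra, Pi16 and Ly6a were lowest there, and Cd34 lay between. The 6 epididymis and testis markers summed to at most 2.79 FPKM in any library, with 3 of them listed at 0 throughout each depot, though not the same ones. Only Crisp1 was at 0 in every library, and Prm1 reached 2.28 FPKM in iWAT 3 and 2.16 in eWAT 2. The epithelial and muscle sums were thus lowest in BAT and in eWAT 1, the libraries in which Hoxc10, Hoxc11 and Hoxc13 were low, and their part in the differences was not tested.

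**Figure D5:**
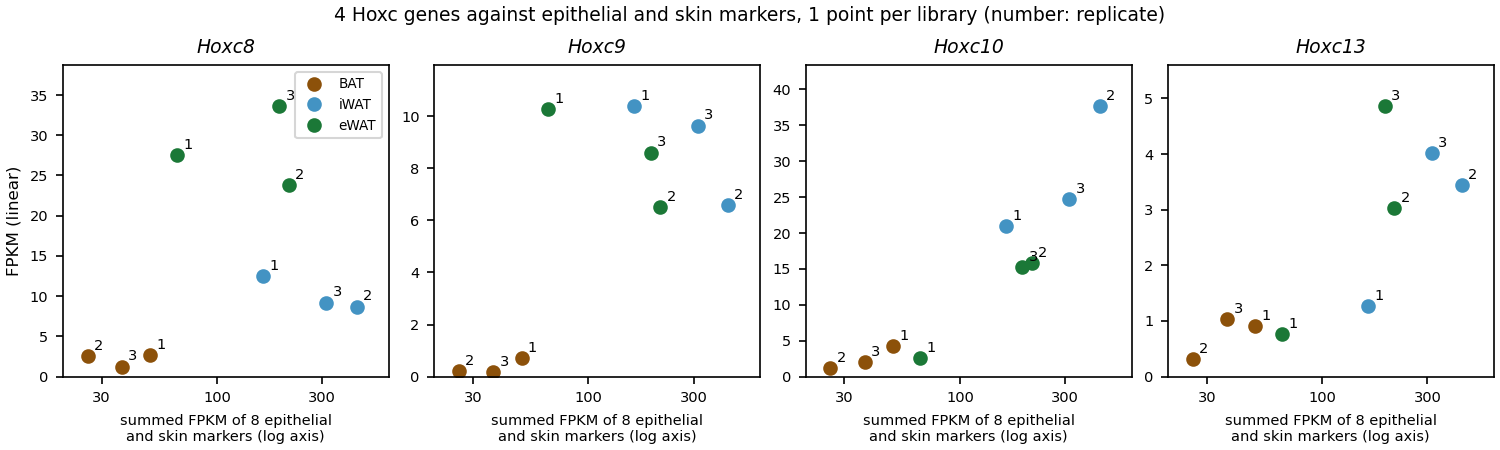
FPKM of Hoxc8, Hoxc9, Hoxc10 and Hoxc13 on a linear axis against the summed FPKM of 8 epithelial and skin markers on a log axis, with 1 point per library coloured by depot and numbered by replicate. Krt5, Krt14 and Krt15 make up most of each marker sum. Replicate 1 of eWAT sits with BAT for Hoxc10 (2.58 FPKM) and Hoxc13 (0.761 FPKM) and with the white depots for Hoxc8 (27.5 FPKM) and Hoxc9 (10.3 FPKM).

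Hox proteins bind DNA with TALE homeodomain partners of the Pbx, Meis and Pknox families. Of 8 listed, 7 were tested. The counts of this and the following lists stand beside the shares called over all genes, which were 34.5% higher and 22.9% lower in BAT against iWAT, and 20.2% and 13.5% against eWAT. Against iWAT, 1 was higher in BAT (Pbx2, log2 difference 0.60) and 2 were lower (Pbx3 -1.90 and Meis3 -1.74), with a list median of -0.15 beside 0.23 over all genes. Against eWAT 0 were higher by limma (0 at an unadjusted p under 0.05) and 1 was lower (Meis3 -1.24), with a median of -0.42 beside -0.022. Pbx3 was at 3.42, 2.21 and 2.59 FPKM in BAT, 6.53, 21.6 and 14.7 in iWAT and 2.48, 13.5 and 12.0 in eWAT. Like Hoxc10, it was within the BAT range in eWAT 1. Between iWAT and eWAT 0 of the 7 were called by limma and 0 had an unadjusted p under 0.05, with a median of -0.089 beside -0.18.

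Polycomb proteins keep Hox genes silent outside their domains, and 25 of 26 listed were tested. Against iWAT 4 were higher in BAT and 7 lower, led by the methyltransferase gene Ezh2 (-2.15) and its partners Jarid2 (-1.98), Rbbp7 (-1.67) and Mtf2 (-1.40). Together 11 of 25 were called, where 57.5% of all genes were, and the list median was -0.34 beside 0.23 over all genes. Against eWAT 3 were higher and 3 lower, the largest being Cbx6 (-1.74), Pcgf5 (1.33), Jarid2 (-1.19) and Pcgf3 (0.96), with a median of -0.25 beside -0.022. Ezh2 was at 10.6, 4.71 and 7.68 FPKM in BAT, 18.8, 56.7 and 43.3 in iWAT and 7.49, 30.4 and 27.7 in eWAT. It too was within the BAT range in eWAT 1. The opposing MLL and H3K27 demethylase list, which keeps Hox genes active, had 11 of 12 genes matched and tested. Against iWAT 1 was higher and 8 lower in BAT, led by Kdm6a (-2.18), Wbp7 (the table's older symbol for Kmt2b, -1.91), Mll3 (Kmt2c, -1.63) and Kdm6b (-1.60), where 57.5% of all genes were called and 22.9% were lower. The list median was -1.28 beside 0.23 over all genes. Against eWAT 1 was higher (Dpy30, 0.74) and 0 lower by limma (4 at an unadjusted p under 0.05), with a median of -0.63 beside -0.022. Between iWAT and eWAT limma called 0 genes of either list, with 1 gene of each at an unadjusted p under 0.05 and medians of 0.14 and 0.61 beside -0.18.

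Retinoic acid and the Cdx factors set Hox domains in the embryo. Of 17 listed genes, 8 were tested. Against iWAT 1 was higher in BAT (Rxrg, 1.71) and 5 were lower, led by Aldh1a1 (-2.64), Crabp1 (-2.21) and Rarg (-1.17), 6 of 8 where 57.5% of all genes were called, with a median of -1.03 beside 0.23. Against eWAT 1 was higher (Rxrg, 1.35) and 3 were lower (Aldh1a1 -5.29, Rxra -1.69 and Rarg -1.27), 4 of 8 where 33.7% of all genes were called, with a median of -0.82 beside -0.022. Aldh1a1, an enzyme that makes retinoic acid, was at 0.660, 0.904 and 1.54 FPKM in BAT, 29.0, 4.95 and 9.90 in iWAT and 87.7, 65.1 and 81.9 in eWAT. The 3 depots did not overlap, and it was the 1 gene of the list called between iWAT and eWAT (-2.65, SE 0.48, limma adjusted p = 0.026), with a list median of 0.15 beside -0.18.

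Genes that lie beside the Hox clusters but belong to other families were given for comparison. Of 13 listed, 12 were in the table and 8 were tested. Against iWAT 6 were higher in BAT and 0 lower by limma (6 and 0 at an unadjusted p under 0.05), led by Mtx2 (2.69), Hibadh (2.60), Snx10 (2.34) and Smug1 (1.26), where 34.5% of all genes were higher and 22.9% lower. The list median was 1.06 beside 0.23 over all genes. Against eWAT 4 were higher, led by Snx10 (2.18), Mtx2 (2.14), Hibadh (1.78) and Smug1 (0.69), and 0 lower by limma (6 and 0 at an unadjusted p under 0.05), where 20.2% of all genes were higher, with a median of 0.63 beside -0.022. Mtx2, a mitochondrial import gene next to Hoxd, was at 166, 157 and 178 FPKM in BAT, 34.0, 21.7 and 21.1 in iWAT and 39.1, 39.9 and 33.0 in eWAT. BAT was above both white depots without overlap, unlike Hoxd8. Between iWAT and eWAT 0 were called by limma (3 lower at an unadjusted p under 0.05), with a median of -0.25 beside -0.18. Of 11 listed non-coding RNAs of the Hox clusters, 3 were matched and none passed the filter, their sum being at most 2.20 FPKM in any library.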

How the data were processed

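Ribosome-bound RNA was measured in 9 libraries, 3 per depot, grouped by their titles. The values are FPKM as the authors deposited them. They were made with TopHat and Cufflinks on mouse build mm9, per the submitters' processing notes, while versions, annotation, filters and strand settings are not given in the sources used here. No unit stands in the header of the table, and FPKM was read from the named tool and the fractional values. The table held 22996 lines, and a repeated symbol (728 lines) was taken from its line of highest mean. No read totals come with it, so depth was estimated from the steps of low FPKM values of single-transcript genes, with a length offset of 200 bases. Between 44.3% and 63.6% of these values were whole reads within a tolerance of 0.15, with the lowest share in eWAT 1. Evenly spread values would also fall within that tolerance in part, and each depth was picked for the best match. The estimates are therefore approximate, most of all for eWAT 1.

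The FPKM values were analysed as log2(FPKM + 1), which understates the change of low genes, with limma 3.58.1 (intensity trend) in R 4.3.3, and tables were made with Python 3.11.15. All 9 libraries entered 1 fit of 3 group means with 6 residual degrees of freedom. The script was tested on simulated data. The Hox members and the comparison lists were chosen with earlier results of these data known. All 38 members are named, with every library's value where a depot averaged at least 1 FPKM. From each other list up to 4 called genes with the largest change per comparison are named, with library values for the leading gene or genes. An item of the cofactor list is not reported here. Gene positions and overlaps are from GENCODE vM1 on mm9, and promoter windows from RefSeq on GRCm38.p6.

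Deviations from the depot mean correlated between same-numbered libraries at 0.634, 0.534 and 0.165 for iWAT and eWAT. Between different numbers of these depots they ran from -0.576 to 0.228. The highest, iWAT 2 with eWAT 3, was above the 0.165 of number 3. The values thus set number 1 apart from 2 and 3, and pairing by number is established neither by them nor by the labels. Same-numbered libraries correlated at -0.324, -0.225 and 0.121 for BAT and iWAT and at -0.388, -0.202 and 0.103 for BAT and eWAT. The scaling was changed to median-ratio or quantile normalization, the filter was dropped or set to a mean of 5 FPKM, and the pseudocount was lowered to 0.1. Further alternatives used only the depots compared, the replicate number as a block, or left out each library. Added after seeing the data were eWAT 1 as the sole eWAT library, and the block with iWAT and eWAT alone.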

Additional observations from a re-analysis of the deposited data

How the results depend on the processing

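The 32 calls of Hox members over the 3 comparisons kept their direction in every alternative in which the member was tested. The replicate block over all libraries gave 7 higher and 8 lower members in BAT versus iWAT, 4 and 8 in BAT versus eWAT, and 1 and 5 in iWAT versus eWAT. It changed the calls of Hoxc10 and Hoxc13 given above and no other, and with iWAT and eWAT alone it gave 3 lower members and lost Hoxb6 and Hoxc5. The filter at a mean of 5 FPKM, under which most members were not tested, gave 2 higher and 3 lower members (1374 of all genes lower) in BAT versus iWAT, 2 and 5 (844) in BAT versus eWAT, and 0 and 2 (63) in iWAT versus eWAT. With eWAT 1 alone, BAT versus eWAT had 3 lower members, and 994 of all genes higher and 417 lower. In iWAT versus eWAT, lower members and lower genes were 2 and 71 with a pseudocount of 0.1, 2 and 69 without a filter, 3 and 83 with median-ratio scaling and 1 and 16 with only these depots. Quantile normalization gave 42 genes higher and 99 lower. Higher members were 0 with the pseudocount and with only these depots, which gave 12 genes higher. Scaling moved the median of all genes from 0.23 to 0.13 (median-ratio) and 0.043 (quantile) in BAT versus iWAT and from -0.18 to -0.033 and -0.020 in iWAT versus eWAT. Median-ratio scaling moved the central sum of eWAT to 84.5 FPKM.

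Leaving out each library in turn gave 4 to 7 higher members and 1578 to 2639 lower genes in BAT versus iWAT. It gave 5 to 8 lower members, 1329 to 2576 higher genes and 784 to 2217 lower genes in BAT versus eWAT. In iWAT versus eWAT it gave 0 to 1 higher and 0 to 9 lower members, and 11 to 456 higher and 4 to 2859 lower genes, the highest counts without iWAT 1. Some falls in the member counts came from the filter, which Hoxa3, Hoxa10 and Hoxb5 failed without a library of BAT, iWAT and eWAT, in that order.

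Signs turned only for members that were not called. In BAT versus iWAT these were Hoxb6 (0.092) and Hoxb8 (0.11) with a pseudocount of 0.1, and Hoxc4 (-0.022 with median-ratio scaling, -0.13 with quantile normalization). In BAT versus eWAT, Hoxb4 turned with median-ratio scaling (0.040), and with eWAT 1 alone Hoxa7 (0.47), Hoxb2 (-0.51), Hoxc4 (0.12) and Hoxc11 (0.36) did. In iWAT versus eWAT they were Hoxa7 (0.036 with the pseudocount, 0.15 with median-ratio scaling, 0.12 with quantile normalization) and Hoxd9 (-0.0063 with the pseudocount). With each library left out, in BAT versus iWAT Hoxa7 ran from -0.44 to 0.13, Hoxb6 from -0.53 to 0.23 and Hoxc4 from -0.039 to 0.36. In BAT versus eWAT Hoxa7 ran from -0.61 to 0.12, Hoxb2 from -0.19 to 0.37, Hoxb4 from -0.11 to 0.065 and Hoxc11 from -0.69 to 0.054. In iWAT versus eWAT Hoxa7 ran from -0.37 to 0.28, Hoxb8 from -0.57 to 0.016, Hoxc9 from -0.096 to 0.24, Hoxc13 from -0.40 to 0.47 and Hoxd9 from -0.15 to 0.62. Causes of these changes were not tested, and the low depth of iWAT limits members near 0.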
